A study of Homo sapiens with 6 samples.

Results

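Luminal breast lineage genes are genes that mark the estrogen-responsive inner cell layer of the breast duct and the tumours that resemble it. The 10 described here are GATA3, FOXA1, SPDEF, MYB, AGR2, TFF1, TFF3, SCUBE2, MLPH and SLC39A6. Each was taken from probe sets whose annotation names that gene alone, keeping the probe set with the highest mean over 6 arrays. All 10 were found, each with 1 such probe set, among 18417 genes measured in this way.

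Gene expression was compared in MDA-MB231 cells, an established metastatic breast cancer line, between 3 arrays of parental cells without treatment (control) and 3 arrays of cells with a stable knockdown of G9a. The knockdown cells were 1 clone, so a difference between clone and parental cells cannot be told apart from an effect of the knockdown. Cells of both groups were kept in DMEM/F12 with serum and collected during log growth. Whether the replicates were separate cultures is not stated in the labels; p-values therefore reflect the scatter of these 6 arrays alone, and that scatter may be technical.

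In luminal cells, FOXA1 opens chromatin for the estrogen receptor, GATA3 sustains the same network, and the pair are needed for luminal identity. Many of the other genes here are estrogen-responsive or encode parts of the secretory pathway that luminal cells use. MDA-MB231 lacks the estrogen receptor and is usually classed with basal or mesenchymal-like lines. G9a, encoded by EHMT2, places a repressive methyl mark on histone H3. The comparison addresses whether luminal genes differ in cells with less G9a.

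EHMT2 read 10.21, 10.27 and 9.93 on the control arrays and 9.66, 9.59 and 9.51 on the knockdown arrays, in log2 intensity. The groups were separate, and the knockdown was at 0.681 of the control level (-0.55 ± 0.10, SE; limma, adjusted p = 0.0259). That call was lost without control replicates 1 or 2 or any single knockdown replicate, with adjusted p from 0.0716 to 0.122. Low intensity was not separated from background here, the number of arrays limits the precision, and intensities of different genes are not comparable as amounts of RNA. By mean intensity AGR2, TFF1, TFF3 and SCUBE2 lay in the bottom tercile of genes, so 6 members would pass a filter set there.

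None of the luminal lineage genes passed the test in the knockdown: 0 of 10 reached an adjusted p of 0.05, where 3.05% of all genes did (limma with Benjamini-Hochberg adjustment, 562 of 18417). At an unadjusted p below 0.05 the count was 1 of 10, FOXA1, beside 19.4% of all genes. A total of 5 members had positive and 5 negative differences, knockdown minus control, and their median was 0.0053 beside 0.03 over all genes. With 1 array left out the median of the members lay on either side of 0, from -0.026 without knockdown replicate 1 to 0.049 without knockdown replicate 3. The median size regardless of sign was 0.13 log2 for the members and 0.09 for all genes. All 10 differences lay between the 5th and the 95th percentile of all genes (-0.26 and 0.25).

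The intervals of the fit reflect array scatter, which may be technical, so they do not bound a biological difference that was missed. The unadjusted 95% interval of every one of the 10 differences stayed within 1.5-fold in either direction. AGR2, TFF1, TFF3 and SCUBE2 lay in the bottom tercile, so their intervals may not reflect the size of an RNA change. The widest was that of AGR2, which reached 1.40-fold lower, and that of SLC39A6 stayed nearest to no change, reaching 1.12-fold higher. A member had to differ by 0.29 log2 (FOXA1 and TFF3) to 0.56 log2 (AGR2) to pass in this unweighted fit, given its own spread; with array weights smaller differences passed, as given further on. In these bulk samples, fewer cells of a type and less RNA per cell cannot be told apart.

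**Figure D1:**
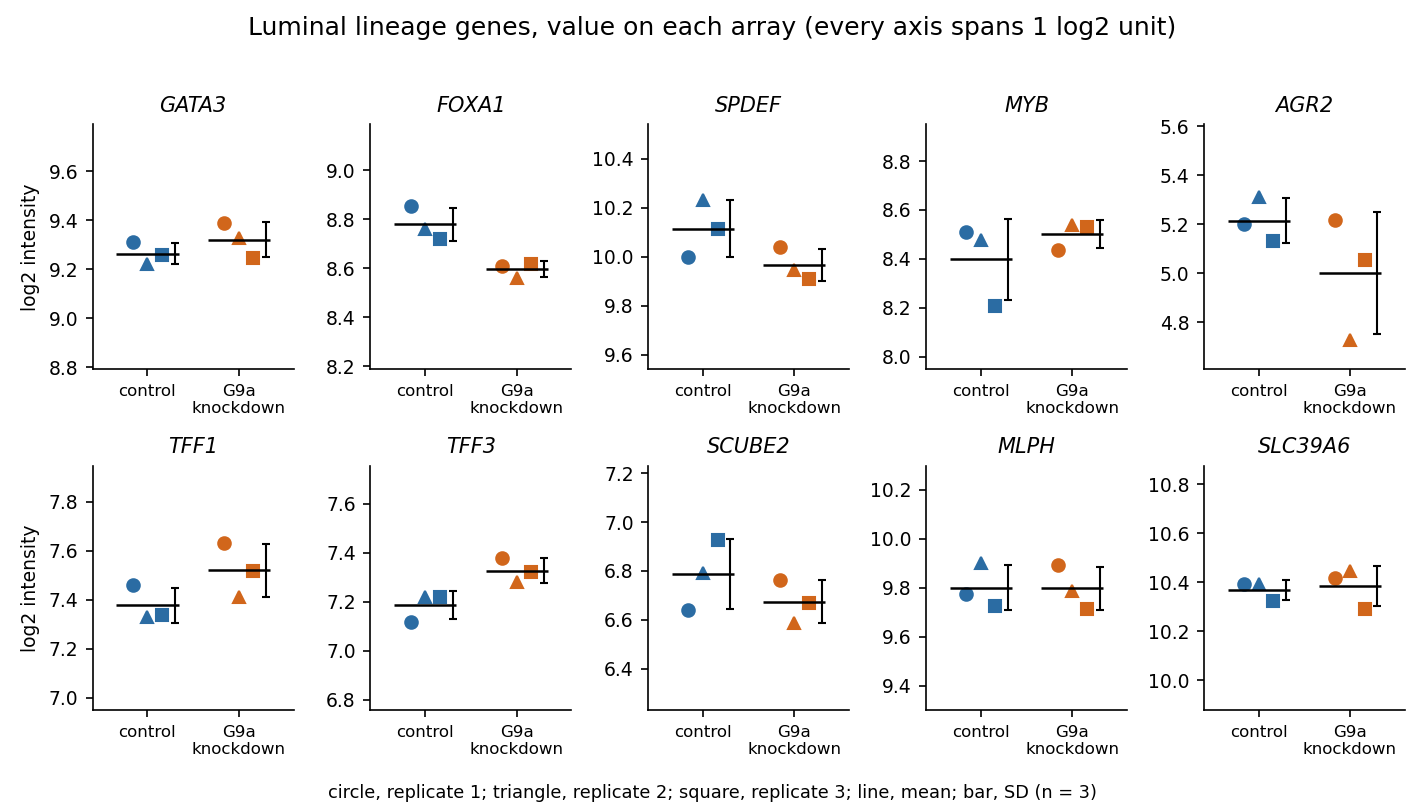
Log2 intensity of each of the 10 luminal lineage genes on the 3 control arrays (blue) and the 3 G9a knockdown arrays (orange), with the mean (line) and SD (bar, n = 3); every vertical axis spans 1 log2 unit. The groups are separate for FOXA1 (lower in the knockdown) and TFF3 (higher) and overlap for the other 8.

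FOXA1, the forkhead pioneer factor of luminal cells, was the transcription factor with the largest difference. It read 8.86, 8.76 and 8.72 on the control arrays and 8.61, 8.56 and 8.62 on the knockdown arrays. All 3 knockdown arrays lay below all 3 control arrays. The difference of -0.18 ± 0.06 (SE), or 0.881 of the control level, did not pass (limma, adjusted p = 0.158; 95% interval -0.32 to -0.04). FOXA1 had a residual spread smaller than that of most genes, and 20.2% of all genes had a larger difference in either direction.

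SPDEF, an ETS-family factor of secretory epithelial cells, read 10.00, 10.23 and 10.11 in control and 10.04, 9.95 and 9.91 in the knockdown. Control replicate 1 and knockdown replicate 1 crossed, so the groups overlapped. The difference was -0.15 ± 0.08 (SE; limma, adjusted p = 0.337; interval -0.32 to 0.03), and it was -0.09 without control replicate 2.

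GATA3, the zinc finger factor that maintains luminal differentiation, read 9.31, 9.22 and 9.26 in control and 9.39, 9.33 and 9.25 in the knockdown. The ranges overlapped, and the difference of 0.06 ± 0.06 (SE; limma, adjusted p = 0.676) had an interval of -0.09 to 0.20. It was 0.022 without knockdown replicate 1 and 0.094 without knockdown replicate 3. MYB, a proto-oncogene factor that estrogen signalling induces in luminal tumours, read 8.51, 8.48 and 8.21 in control and 8.43, 8.54 and 8.53 in the knockdown. Only control replicate 3 stood low, and the difference of 0.10 ± 0.09 (SE; limma, adjusted p = 0.575) was 0.0066 without that array and 0.16 without control replicate 1.

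AGR2 encodes a protein disulfide isomerase of the endoplasmic reticulum that helps fold secreted mucins. It read 5.20, 5.31 and 5.13 in control and 5.22, 4.73 and 5.05 in the knockdown. Knockdown replicate 2 stood low while knockdown replicate 1 lay within the control range. The difference, the largest of the 10, was -0.21 ± 0.12 (SE; limma, adjusted p = 0.370; interval -0.49 to 0.06), and it was -0.08 without knockdown replicate 2 and -0.32 without knockdown replicate 1.

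FOXA1, SPDEF and AGR2 had the 3 most negative differences, and their promoters are shown because these members also passed the test when arrays were weighted, as described further on. Each line gives the 250 bases before the start of the gene, 5′ to 3′ on the gene's own strand, from RefSeq on GRCh38.p14; capitals mark a motif match.
FOXA1 (chr14:37595250-37595499, minus strand): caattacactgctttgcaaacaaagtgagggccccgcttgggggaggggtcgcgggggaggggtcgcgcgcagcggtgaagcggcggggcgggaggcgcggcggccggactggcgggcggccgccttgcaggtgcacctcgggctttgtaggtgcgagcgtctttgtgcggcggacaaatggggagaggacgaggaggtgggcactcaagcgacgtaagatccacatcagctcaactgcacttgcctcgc
SPDEF (chr6:34556330-34556579, minus strand): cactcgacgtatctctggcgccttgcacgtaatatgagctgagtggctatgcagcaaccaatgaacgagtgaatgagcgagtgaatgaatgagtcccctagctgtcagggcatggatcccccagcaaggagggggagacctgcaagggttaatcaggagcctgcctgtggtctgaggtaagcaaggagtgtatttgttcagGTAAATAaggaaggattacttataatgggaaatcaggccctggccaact
AGR2 (chr7:16805000-16805249, minus strand): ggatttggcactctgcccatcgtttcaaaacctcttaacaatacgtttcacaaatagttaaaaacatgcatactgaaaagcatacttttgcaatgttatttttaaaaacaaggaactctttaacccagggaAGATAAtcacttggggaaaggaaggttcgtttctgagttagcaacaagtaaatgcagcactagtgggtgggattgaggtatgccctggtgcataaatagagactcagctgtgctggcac

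RefSeq starts were matched for 8 of the 10 members, 14 starts in all, out of 35116 searched. TFF1 and TFF3 had no matched start and were not searched. The letters searched on both strands were TGTTTAC and TATTTAC for forkhead factors, AGATAA for GATA factors, and GGTCA and TGACC separated by any 3 bases for the estrogen receptor; no match overlapped another. TATTTAC, present before 2.39% of all starts, was found before SPDEF on the opposite strand, 49 to 43 bases before the start. AGATAA, present before 9.17% of all starts, was found before AGR2, 119 to 114 bases before the start. TGTTTAC, present before 2.98% of all starts, was found before MYB, 14 to 8 bases before the start. None of the 4 motifs was found in the FOXA1 window, and the estrogen receptor motif was found before 0 of the 14 starts (0.0399% of all). A motif this rare would be unlikely before any 14 starts, so that count is not informative.

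The same windows differed in CpG content. The ratio of observed to expected CpG was 0.977 before FOXA1, higher than before 89.7% of all starts, and 0.387 before SPDEF and 0.296 before AGR2, both below the median of 0.558. The 3 windows therefore had no common CpG level.

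TFF1 and TFF3 encode trefoil factors, small secreted peptides that protect mucosal surfaces; TFF1 is a classic estrogen target. TFF3 read 7.12, 7.22 and 7.22 in control and 7.38, 7.28 and 7.32 in the knockdown. All 3 knockdown arrays lay above all 3 control arrays, and the difference of 0.14 ± 0.06 (SE) did not pass (limma, adjusted p = 0.261; interval -0.00093 to 0.28). TFF1 read 7.46, 7.33 and 7.34 in control and 7.63, 7.41 and 7.51 in the knockdown. Its groups overlapped through control replicate 1, with a difference of 0.14 ± 0.08 (SE; limma, adjusted p = 0.345; interval -0.03 to 0.32) that was 0.09 without knockdown replicate 1.

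FOXA1 and TFF3 were the 2 members of 10 whose groups did not overlap, beside 27.0% of all genes (14.3% higher and 12.7% lower in the knockdown). For each of them the exact two-sided permutation p was 0.1, the smallest that 3 arrays against 3 can give.

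SCUBE2, a secreted protein that helps release hedgehog ligands and is measured in clinical recurrence tests, read 6.64, 6.79 and 6.93 in control and 6.77, 6.59 and 6.67 in the knockdown. The values were mixed between the groups, and the difference was -0.11 ± 0.09 (SE; limma, adjusted p = 0.521; interval -0.31 to 0.09). Leaving out control replicate 3 brought it to -0.04, leaving out knockdown replicate 2 to -0.07 and leaving out control replicate 1 to -0.19.

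MLPH and SLC39A6 had the smallest differences. MLPH, melanophilin, which ties Rab27 vesicles to a myosin motor, read 9.77, 9.90 and 9.73 in control and 9.89, 9.79 and 9.72 in the knockdown. Its difference was -0.0033 ± 0.07 (SE; limma, adjusted p = 0.987; interval -0.17 to 0.17). SLC39A6, the zinc importer also called LIV-1 and an estrogen-induced gene, read 10.39, 10.39 and 10.32 in control and 10.42, 10.44 and 10.29 in the knockdown. Its difference was 0.01 ± 0.07 (SE; limma, adjusted p = 0.930; interval -0.14 to 0.16). Both sets of values were fully mixed, and the sign of either difference turned when single arrays were left out: MLPH reached 0.05 without control replicate 2, and SLC39A6 reached -0.02 without knockdown replicate 2.

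**Figure D2:**
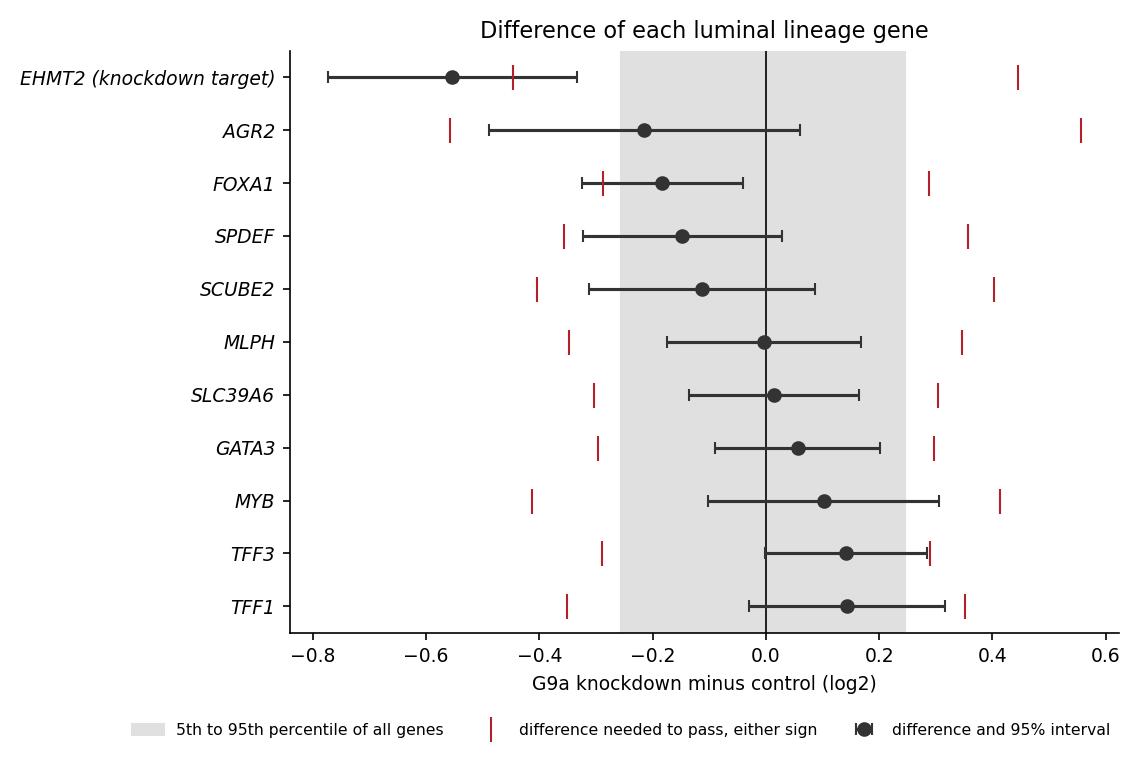
Knockdown minus control (log2) for the 10 luminal lineage genes and for EHMT2, the knockdown target: points are limma estimates, bars their unadjusted 95% intervals, red ticks the difference each gene needed to pass in either direction, and the grey band the 5th to 95th percentile of all genes. EHMT2 lies past its tick and outside the band; no luminal lineage gene reaches its tick.

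The members were also followed array by array. Relative to each gene's own mean over the 6 arrays, the median of the 10 members was 0.01, 0.05 and -0.03 on control replicates 1 to 3 and 0.07, -0.02 and -0.06 on knockdown replicates 1 to 3. Knockdown replicate 1 thus had the highest and knockdown replicate 3 the lowest position, and the groups overlapped. Knockdown replicate 1 was also highest over all genes, at 0.04, with the other arrays between -0.0093 and 0.0044. The residual spread of the members was close to that of all genes, with a median SD of 0.09 against 0.10.

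With arrays weighted by how far they scatter, 3 of the 10 members passed, all lower in the knockdown, beside 18.1% of all genes in either direction and 8.74% lower. They were AGR2 (-0.30; adjusted p = 0.0470), FOXA1 (-0.17; adjusted p = 0.0352) and SPDEF (-0.25; adjusted p = 0.0357), by limma with array weights. Over all alternatives the adjusted p ranged from 0.0470 to 0.649 for AGR2, 0.0352 to 0.379 for FOXA1 and 0.0357 to 0.673 for SPDEF, and none passed in any other. The weights were uneven: 4.83 for control replicate 2 and 2.05 for knockdown replicate 3, against 0.273 for control replicate 3 and 0.413 for knockdown replicate 1, and 3328 genes passed in place of 562. SPDEF and AGR2 were highest of all 6 arrays on control replicate 2, the array with the greatest weight. So was MLPH, which did not pass (limma with array weights, adjusted p = 0.181), while FOXA1 was highest on control replicate 1. The main and weighted fits differed only in the weights, so these 3 calls depended on weighting. Whether the weight of any 1 array accounted for them was not tested.

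**Figure D3:**
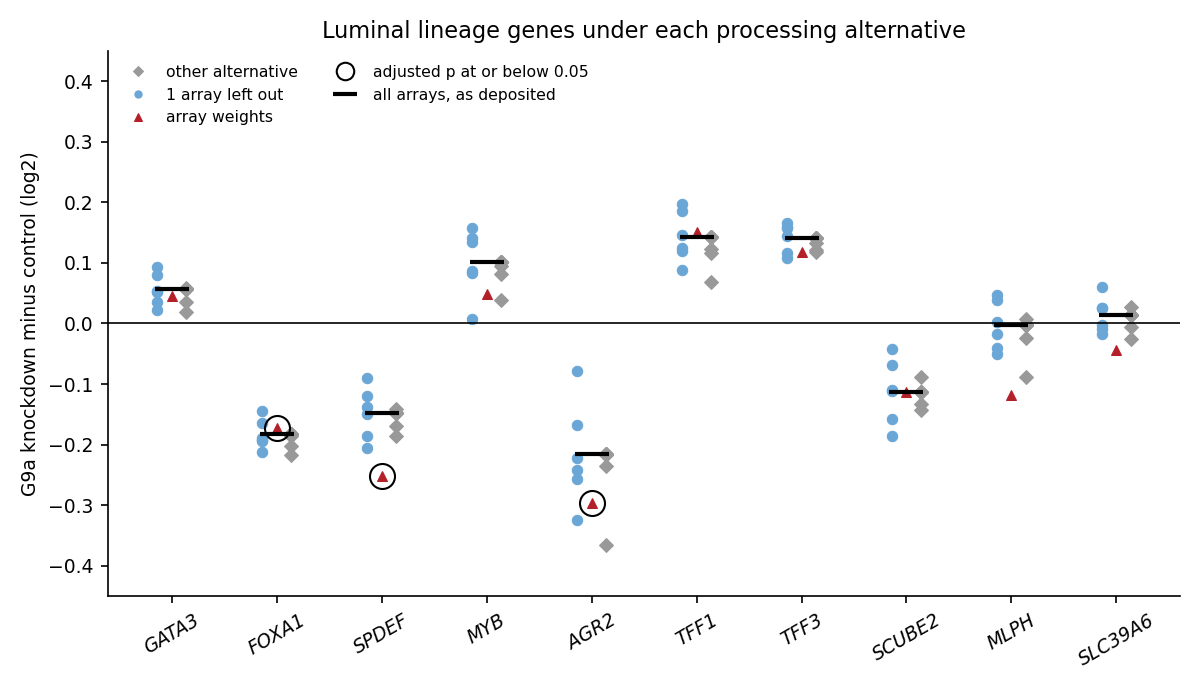
Knockdown minus control (log2) for each luminal lineage gene with all arrays as deposited (black bar), with 1 array left out (blue), with array weights (red) and under the other alternatives (grey); open circles mark an adjusted p at or below 0.05. Circles appear for FOXA1, SPDEF and AGR2, each with array weights; MLPH and SLC39A6 fall on both sides of 0.

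Other genes of the luminal programme, and of the programmes it is usually contrasted with, were taken from lists. These lists were chosen with earlier results of these data known, so their counts are descriptive only. Of 28 measured hormone receptor and estrogen response genes, 1 rose, 0 fell and 27 did not pass, beside 1.28% of all genes higher and 1.78% lower; the median was 0.06. HSPB8, a small heat shock protein gene, was the one that rose, by 0.35 ± 0.07 (SE; limma, adjusted p = 0.0313). It missed the threshold with any 1 array left out (adjusted p from 0.0549 to 0.122) in the fit with replicate number as a block (0.0672), and without control replicate 3 and knockdown replicate 1 together (0.0770).

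The luminal epithelial identity list had 30 measured genes: 25 missed the threshold, 4 rose and 1 fell, with a median of 0.02. Those passing were 16.7% of the list, beside 3.05% of all genes in either direction. FBP1, a gluconeogenic phosphatase gene, rose by 0.72, the cadherin gene CDH1 by 0.45 and the mucin gene MUC1 by 0.39, while EHF, an epithelial ETS factor gene, fell by 0.63. These calls depended on the arrays: 0 of the 30 passed without knockdown replicate 1, and 1 passed without control replicates 1 or 2 or without knockdown replicates 2 or 3. With the replicate block, 3 passed. FBP1 was at an adjusted p of 0.0503 without knockdown replicate 1.

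Among 38 family relatives and partners of the members (the other GATA, FOXA, MYB, trefoil, SCUBE and SLC39 genes, ETS relatives of SPDEF, and Rab27 partners of MLPH), 1 rose, 1 fell and 36 did not pass; the median was 0.04. The share that passed was 5.26% of the list, beside 3.05% of all genes. The passing genes were both ETS relatives, EHF, as above, and ELF3, which rose by 0.38 ± 0.08 (SE; limma, adjusted p = 0.0498). ELF3 read 7.52, 7.57 and 7.72 in control and 7.95, 8.10 and 7.89 in the knockdown. EHF read 11.37, 11.41 and 11.82 in control and 10.77, 10.95 and 11.00 in the knockdown. The difference of SPDEF, their relative among the members, lay between theirs. Without any array other than control replicate 3, neither passed (adjusted p from 0.0504 to 0.145), and ELF3 missed the threshold after quantile normalization (0.0608), median centring (0.0583) and with the replicate block (0.104). EHF and ELF3 stand in the identity list as well.

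The basal list had 15 measured genes: 13 missed the threshold, 2 rose and 0 fell, with a median of 0.10. This was 13.3% of the list passing, beside 3.05% of all genes. ITGB4, an integrin subunit gene, rose by 0.75 and MYLK, a myosin kinase gene, by 0.63 (limma, adjusted p = 0.00345 and 0.0109). MYLK missed the threshold without knockdown replicate 1 (0.0528) or 3 (0.0676). Of 14 mesenchymal and claudin-low genes, 0 passed; the median was -0.04, and SPARC (0.37, adjusted p = 0.0650) and ZEB1 (-0.21, adjusted p = 0.128) had the lowest p. SPARC passed without control replicate 3 (0.47, adjusted p = 0.0142), and 1 gene of that list then passed. When all probe sets were tested together, ITGB4 and LUM (named below as a fibroblast marker) passed, and HSPB8, FBP1, CDH1, MUC1, EHF, ELF3, MYLK and CDH5 missed the threshold (adjusted p from 0.0501 to 0.138), so that 0 of the 30 identity genes and 0 of the 28 hormone receptor and estrogen response genes were called. Whether any of these lists differed from the luminal lineage genes was not tested.

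**Figure D4:**
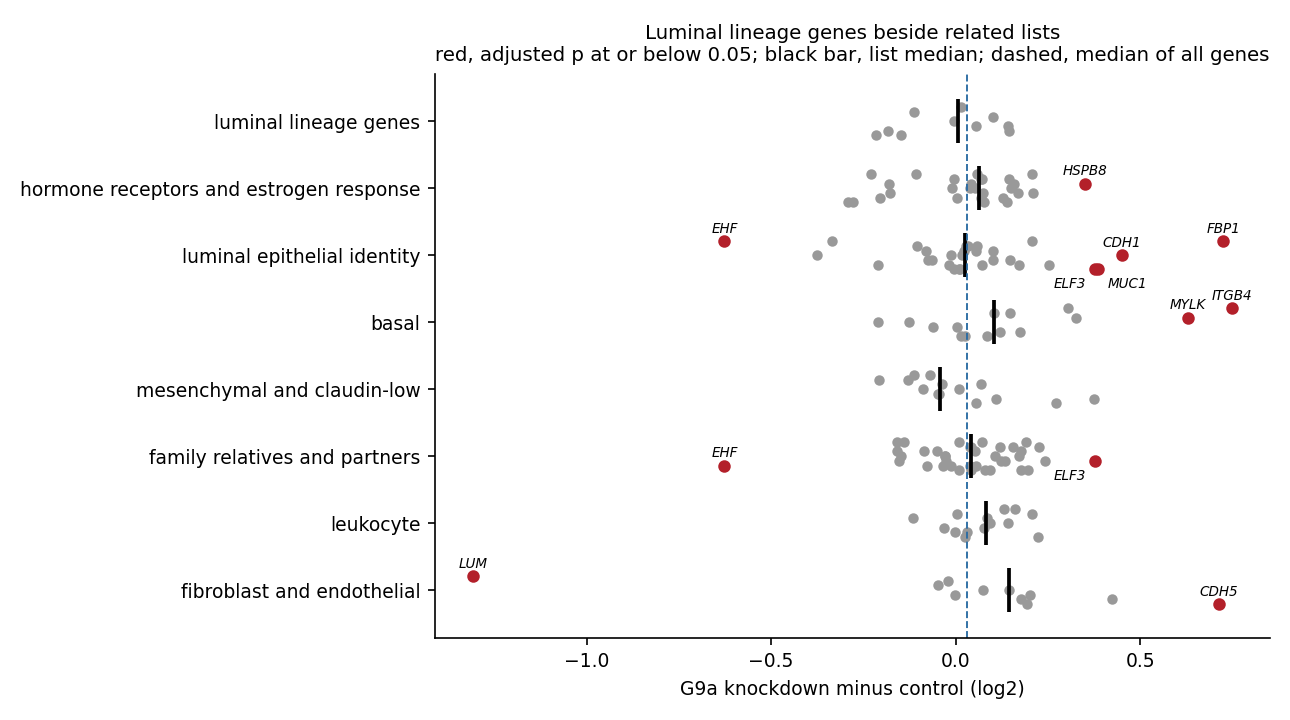
Knockdown minus control (log2) for each measured gene of the luminal lineage list and 7 related lists; red points with names have an adjusted p at or below 0.05, black bars are list medians and the dashed line is the median of all genes, 0.03. The luminal lineage row, from -0.21 to 0.14, has no red point.

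Markers of cell types were compared with the line's label. By mean intensity, 0 of 14 mesenchymal and claudin-low genes lay in the bottom tercile of genes and 10 in the top tercile, against 4 and 3 of the 10 luminal lineage genes. The counts were 9 and 12 of the 30 luminal epithelial identity genes, 9 and 12 of the 28 hormone receptor and estrogen response genes, and 4 and 5 of the 15 basal genes, although probe sets differ in how brightly they bind. Of 14 leukocyte markers 10 lay in the bottom tercile and 0 in the top tercile, and 0 passed; PTPRC (0.21) and CSF1R (0.22) had the lowest p. Their mean log2 intensity was 6.63 to 6.76 on control arrays and 6.72 to 6.82 on knockdown arrays. GATA3 and MYB are also expressed in blood cells. The samples were cultures of a breast cancer line, and a part of blood cells in these values was not tested.

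Of 11 fibroblast and endothelial markers, LUM (lumican) fell by 1.31 and CDH5 (VE-cadherin) rose by 0.71 (limma, adjusted p = 0.00732 and 0.0210). They were 18.2% of the list, beside 3.05% of all genes passing. Of the 11, 7 differences were positive and 4 negative, where 40.4% of all genes were negative. The median over the list was 0.14, which was 0.23 without control replicate 3 and 0.08 without control replicate 1 or knockdown replicate 1. The mean of the list was 6.94 to 7.15 on control arrays and 7.06 to 7.10 on knockdown arrays. CDH5 missed the threshold with the replicate block (0.0649) and without control replicate 2 or any single knockdown replicate (0.0615 to 0.0869). These scales have no true 0, so no marker could be read as absent.

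The members lie on 8 chromosomes, and their neighbours in RefSeq gene order (5 measured genes on each side) were described for each. TFF1 and TFF3 sit beside TFF2 on chromosome 21, and all 3 trefoil genes had positive differences, that of TFF2 being 0.12 ± 0.09 (SE; limma, adjusted p = 0.490). AGR3, the paralog next to AGR2 on chromosome 7, was at 0.01 ± 0.09 (SE; limma, adjusted p = 0.965), while 8 of the 10 neighbours of AGR2 had negative differences (median -0.13), where 40.4% of all genes did. Likewise 8 of 10 neighbours of SCUBE2 on chromosome 11 (median -0.08) and 7 of 10 of SPDEF on chromosome 6 (median -0.07) were negative. The count was 6 of 10 for SLC39A6 (median -0.02), 5 for GATA3 (-0.02), 4 for FOXA1 (0.03), MLPH (0.08), TFF1 and TFF3 (0.05 each), and 3 for MYB (0.05).

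GATA3-AS1, the noncoding gene that starts beside GATA3 on chromosome 10, was at 0.25 ± 0.08 (SE; limma, adjusted p = 0.150) with separate groups. Of 93 distinct neighbours, TFF1 and TFF3 included, 4 passed (4.30%, beside 3.05% of all genes). FOXA1, MYB, AGR2 and SCUBE2 each had 1 of them among their neighbours, with at least 1 other measured gene in between. Those 4 genes were named after their values were seen. PAX9, among the neighbours of FOXA1, fell by 0.77 and passed with any single array left out. PDE7B, among those of MYB, rose by 0.95. HDAC9, among those of AGR2, fell by 0.56, and TMEM41B, among those of SCUBE2, fell by 0.49. Each of these 3 was no longer called when control replicate 2 was left out (adjusted p = 0.0539, 0.0561 and 0.0557), nor without knockdown replicate 1 (0.128, 0.0675 and 0.0655) or knockdown replicate 3 (0.123, 0.0856 and 0.0737), and PDE7B and TMEM41B also without knockdown replicate 2 (0.0750 and 0.0502); HDAC9 missed it with the replicate block (0.0649) and without control replicate 3 and knockdown replicate 1 together (0.0681). With all probe sets tested, PDE7B (0.110), HDAC9 (0.0815) and TMEM41B (0.0664) missed it too.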

How the data were processed

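Total RNA labelled with biotin was hybridised to single-colour arrays, 6 in all, grouped by the sample titles. The deposited log2 values were already scaled between arrays by the authors, judging from their near-equal quartiles, with software and summarisation step not given in the sources used here, and the log base was inferred from the range, 2.13 to 14.8. Of 33297 probe sets, 19460 were annotated with 1 gene, 1754 with several and 12083 were not listed; symbols were updated through Entrez numbers (19429 found in RefSeq). The probe set with the highest mean over the arrays stood for each of 18417 genes. The fit was limma 3.58.1 in R 4.3.3 (lmFit, eBayes, no trend), two-sided, with p-values adjusted by the Benjamini-Hochberg method over all these genes and 4 residual degrees of freedom. Steps were tested on simulated arrays.

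The members and lists were chosen with earlier results of these data known. Genes named were all members and EHMT2, and from each list up to 4 passing genes with the largest differences or, where none passed, the 2 with the lowest p. Alternatives changed the normalization, low-value filter, variance model, array weights, block, probe set choice and arrays used. A further 14 listed genes were not analysed here.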

Additional observations from a re-analysis of the deposited data

How the results depend on the processing

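In 16 alternatives, 0 of the 10 luminal lineage genes passed in 15 and 3 passed with array weights, where the median over members was -0.078; without control replicate 3 and knockdown replicate 1 together that median was -0.057. MLPH turned sign after quantile normalization (0.0071) and ranged from -0.050 to 0.048 with 1 array left out. SLC39A6 turned sign after median centring (-0.0065), with array weights (-0.044) and without control replicate 3 and knockdown replicate 1 together (-0.026), and ranged from -0.017 to 0.060 with 1 array left out. The other 8 members kept their sign in every alternative that measured them; AGR2, TFF1, TFF3 and SCUBE2 had no value with the bottom tercile of genes left out.

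Of all genes, 562 passed in the main setting, 972 with the bottom tercile left out, 1083 with an intensity trend, 3328 with array weights, 60 with all probe sets tested, 343 without control replicate 3 and knockdown replicate 1 together, and 44 to 535 with 1 array left out. EHMT2 stayed at -0.55 with all probe sets tested but missed the threshold (adjusted p = 0.0957), and ranged from -0.66 to -0.49 with 1 array left out. Replicate numbers are not stated to pair the arrays. Correlations of deviations for the same number were -0.246, 0.122 and 0.0877, too few to settle whether they do. With the replicate block 217 genes and no luminal lineage gene passed. The causes were not tested.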
